A study of Mus musculus with 30 samples.

Results

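Thrombospondins, tenascin-C, osteopontin, periostin, Tgfbi, the SPARC family, fibronectin and multimerin-2 are secreted proteins of the extracellular matrix. The 10 genes described here (Thbs1, Thbs2, Tnc, Spp1, Postn, Tgfbi, Sparc, Sparcl1, Fn1 and Mmrn2) were taken as a named list, without a threshold on any measured value, from 21847 protein-coding genes. All 10 passed the filter on low counts in each comparison.

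Matricellular proteins are secreted into the extracellular matrix, where they bind matrix fibers, growth factors and cell-surface receptors without forming the main scaffold themselves. Many are scarce in resting adult vessels and are made in development, after injury or by cells in culture. Fibronectin differs from them in that it forms fibrils to which cells attach through integrins, and multimerin-2 is a matrix protein made by endothelial cells (ECs) that binds the EC surface proteins CLEC14A and CD93.

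RNA-seq covered 14 libraries of cells from the brains of adult male mice. Acutely isolated ECs (2 libraries, acute ECs hereafter) were sorted as GFP-positive cells from homozygous Tie2-GFP mice, in which the Tie2 promoter drives GFP, and the GFP-negative cells of the sort gave 2 libraries. WT cultures (6 wells) and cultures with stabilized beta-catenin (4 wells) were brain ECs selected with puromycin and grown on collagen for 8 days. ATAC-seq, which maps accessible chromatin, covered 2 acute EC libraries, 6 from WT cultures and 2 from stabilized cultures.

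The stabilized cultures carried Ctnnb1flex3/+;Pdgfb-CreER;Tie2-GFP, and the deletion of Ctnnb1 exon 3 had been induced in the pups with 4-hydroxytamoxifen (4HT), through a Cre that the Pdgfb promoter drives in ECs. WT replicates 1 and 2 were C57BL/6J, isolated by method A (papain) and sequenced for 36 cycles. The study's results describe 4HT injection for these mice, but its methods leave this unclear. WT replicates 3 to 6 were Ctnnb1flex3/+;Tie2-GFP mice that had also received 4HT, isolated by method B (homogenization, then collagenase and dispase). For RNA-seq, another facility prepared the libraries of replicates 3 and 4 and sequenced them for 150 cycles, while replicates 5 and 6 had 36 cycles. In RNA-seq, stabilized replicates 1 and 2 used method A and replicates 3 and 4 method B, all at 36 cycles. In ATAC-seq, both stabilized libraries came from method B, and every library had 36 cycles. Each culture experiment pooled the brains of several mice and gave 2 wells, so that the p-values measure the spread between wells and experiments and not between animals. In fits of 1 isolation method and read length, and in the interaction, each group of cultures is 2 wells of 1 experiment. Those p-values hold no spread between culture experiments. The genotype of the WT cultures cannot be told apart from isolation method. The sorted RNA-seq libraries, which combine cerebrum and cerebellum, were single reads of 75 cycles, whereas those of the cultures were paired reads. In RNA-seq, read type therefore cannot be told apart from culture.

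The libraries held 24284843 to 94686456 estimated counts, and mitochondrial genes took from 10.6% to 24.2% of the counts of the sorted cells and from 0.667% to 2.58% of those of the cultures. The summed TPM of 6 endothelial markers was 1662 to 1748 in acute ECs, 698 to 1912 in WT cultures and 936 to 3261 in stabilized cultures, against 4.44 to 17 in GFP-negative cells. The acute EC libraries also held erythrocyte transcripts (5448 and 41099 TPM summed over 5 genes). Smooth muscle markers summed to 216 to 236 TPM in acute ECs and 503 to 3073 TPM in WT cultures. Ctnnb1 transcripts were present at 230 to 747 TPM in WT cultures and 306 to 808 TPM in stabilized cultures, and a level over the whole gene does not show whether exon 3 was deleted. Axin2, a target of beta-catenin signaling, was at 0.0998 to 0.269 TPM in WT cultures and 0.974 to 1.86 TPM in stabilized cultures, without overlap. Both were far below the acute ECs, at 47.0 and 51.8 TPM.

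The first question was how these transcripts differ between cultured and acutely isolated brain ECs. Thbs1 and Tnc were near 0 in acute ECs and abundant in every WT culture. Spp1 reached at most 1.28 TPM in acute ECs and ranged from 10.0 to 353 TPM in WT cultures, and Sparcl1 was far lower in culture. In the quasi-likelihood test of edgeR, adjusted by the Benjamini-Hochberg method, 3 of the 10 genes were called higher in culture and 1 was called lower. A call also required a change over 2-fold and at least 5 TPM in each replicate of the higher group. TPM is the share of transcripts after division by length. Of all 13798 genes tested, 13.5% were called higher and 10.2% lower. Over the 10 genes the log2 fold change of counts had a median of 0.59, against 0.10 over all genes tested. In TPM, 3 of the 10 genes were higher in all 6 WT cultures than in both acute EC libraries and 2 were lower, where 32.1% and 16.3% of all tested genes were so. In bulk RNA, fewer cells of a type and less RNA per cell cannot be told apart.

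**Figure D1:**
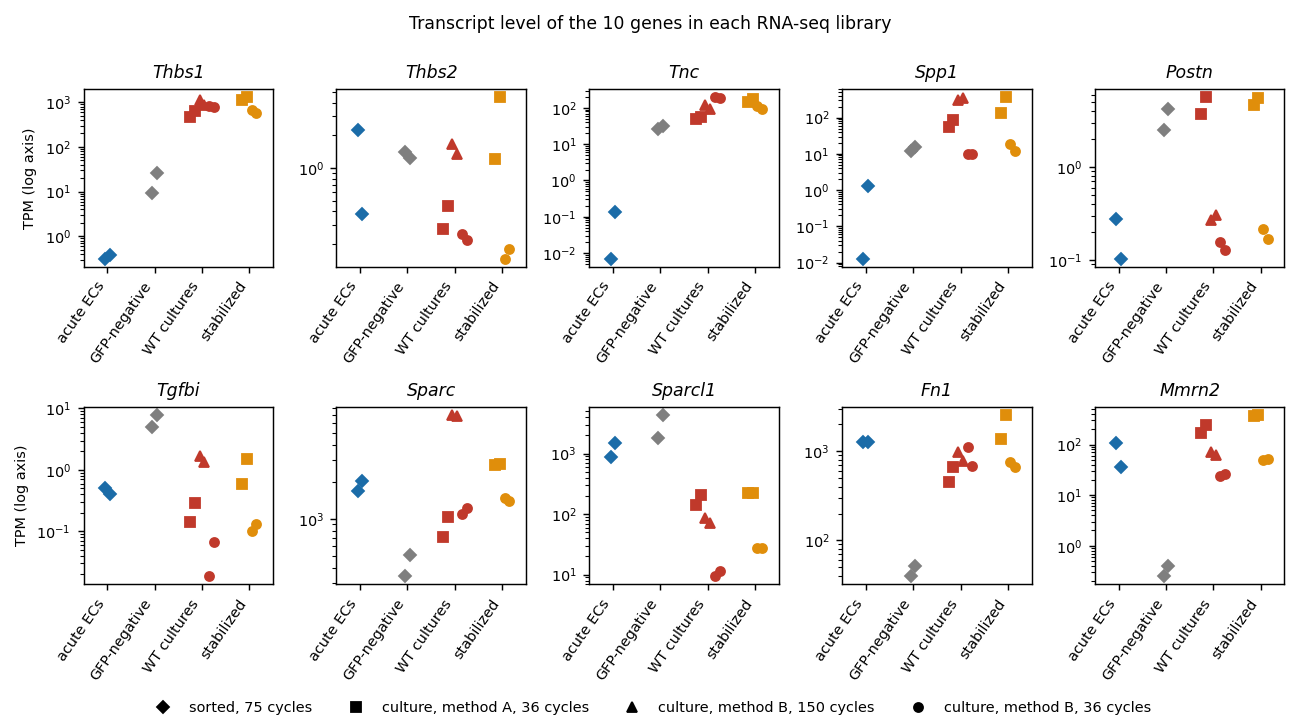
TPM of the 10 genes in each of the 14 libraries (log axis, a separate range for each gene). Each symbol is a library, colour gives the group and shape the isolation method and read length. Thbs1 and Tnc lie at the bottom of the range in both acute EC libraries and at 49.0 TPM or more in all cultures.

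Thbs1, on chromosome 2 (GRCm38, chr2:118111876-118127133, + strand), encodes thrombospondin-1, which restrains the growth of vessels through CD36 and CD47 and can activate latent TGF-beta. Its level in the acute ECs was 0.320 and 0.385 TPM. In the WT cultures the lowest level was 478, the median 808 and the highest 1126 TPM. All 6 cultures lay above both acute EC libraries, and the log2 fold change of counts was 9.64 (SE 0.79, adjusted p = 8.65e-05, edgeR). Over the settings that left out a replicate it ranged from 9.43 to 9.83.

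Thbs1 also gained a region of accessible chromatin in culture, and its sequence is shown because acute ECs lacked a peak there while the Thbs1 transcript was near 0. The region spans chr2:118110185-118110996, centred 1286 bases upstream of the start, and overlaps an exon of the neighbouring gene Gm13986. Peaks there had a fold enrichment over local background of 7.61, 6.1, 8.41, 8.56, 9.95 and 9.84 in WT cultures 1 to 6 and of 9.22 and 9.87 in the stabilized cultures. The 300 bases around the median peak summit (chr2:118110647-118110946, + strand) held none of the motifs searched, which were AP-1 (TGANTCA), TEAD (GGAATG), TCF/LEF (CTTTGAT) and ETS (AGGAAG), each on both strands.
Thbs1 upstream region: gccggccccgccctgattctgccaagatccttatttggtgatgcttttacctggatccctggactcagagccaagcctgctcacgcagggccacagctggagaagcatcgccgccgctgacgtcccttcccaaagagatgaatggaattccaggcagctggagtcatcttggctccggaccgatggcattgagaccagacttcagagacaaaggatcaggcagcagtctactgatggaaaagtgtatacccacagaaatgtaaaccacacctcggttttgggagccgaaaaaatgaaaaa

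Thbs2 encodes the related thrombospondin-2 and stayed scarce. Its level in the acute ECs was 2.24 and 0.377 TPM, and in the WT cultures the lowest level was 0.219, the median 0.362 and the highest 1.66 TPM. The groups overlapped in TPM. The log2 fold change of counts was -2.87 (SE 0.67, adjusted p = 0.00821, edgeR), but no library reached the TPM minimum, so the gene was not called. The value rested on acute EC replicate 1, which held 2794 counts against 217 in replicate 2, and it was -0.43 without that library.

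Tnc encodes tenascin-C, a six-armed glycoprotein of injured and developing tissue that weakens the attachment of cells to fibronectin. The acute ECs held 0.00703 and 0.136 TPM, from 10 and 34 counts. WT cultures had a lowest level of 49.0, a median of 107 and a highest of 198 TPM. All 6 cultures lay above both acute EC libraries here too, and the log2 fold change of counts was 11.28 (SE 1.55, adjusted p = 0.000764, edgeR). The highest levels were in method B replicates 5 and 6. The lowest TPM was in method A replicates 1 and 2, and the lowest CPM (counts scaled to library size, without length) in the 150-cycle replicates 3 and 4 and replicate 2. In the WT cultures 79.1% to 88.8% of Tnc TPM was assigned to a single coding transcript of 7100 bases, Tnc-204. The strand of the reads is not given in the sources used here, so reads of 8030451A03Rik, which overlaps Tnc, cannot be told apart from reads of Tnc.

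The start of Tnc was accessible in all 8 cultured ATAC-seq libraries and in neither acute EC library, and the bases before it are shown because no other of the 10 genes had that pattern at its start. The fold enrichment of the peak was 12.4, 12.3, 13, 13.6, 15.7 and 15.4 in WT cultures 1 to 6 and 13 and 13.2 in the stabilized cultures. Of 21943 genes, 1.71% had a peak at a start site in all WT cultures and no acute EC library. The 300 bases upstream of the first annotated start (chr4:64047016-64047315, - strand) held none of the motifs searched.
Tnc upstream bases: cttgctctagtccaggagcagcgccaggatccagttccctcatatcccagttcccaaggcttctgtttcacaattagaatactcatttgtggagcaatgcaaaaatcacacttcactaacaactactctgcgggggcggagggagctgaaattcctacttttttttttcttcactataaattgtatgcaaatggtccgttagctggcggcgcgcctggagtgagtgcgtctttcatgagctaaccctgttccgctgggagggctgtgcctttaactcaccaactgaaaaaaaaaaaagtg

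Spp1 encodes osteopontin, a phosphorylated glycoprotein that binds CD44 and several integrins. The acute ECs held 0.0129 and 1.28 TPM, from 2 and 78 counts. The lowest level in WT cultures was 10.0, the median 71.3 and the highest 353 TPM, so the cultures differed among themselves by more than a factor of 10. Replicates 3 and 4 were the highest and replicates 5 and 6, of the same method and genotype, the lowest. The log2 fold change of counts was 7.38 (SE 1.98, adjusted p = 0.0151, edgeR), and all 6 cultures lay above both acute EC libraries. The call was lost without acute EC replicate 1 (6.40, adjusted p = 0.0689) and with WT replicates 5 and 6 alone (4.42, adjusted p = 0.0832).

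Around Spp1, a region centred 8914 bases upstream of the start was accessible in all 8 cultured libraries and in neither acute EC library. Its fold enrichment ranged from 5.17 to 13.2 in the WT cultures and was 6.59 and 4.65 in the stabilized cultures. At the start site itself, peaks were present in WT replicates 3 and 4 alone, the libraries whose namesakes in RNA-seq had the highest Spp1 level, although RNA-seq and ATAC-seq replicates share a number and not a well. The 300 bases around the median summit (chr5:104425914-104426213, + strand, intergenic) held 1 ETS match, in capitals on the opposite strand. ETS matches are common, in 46.9% of 125880 accessible regions of 300 bases and 35.4% of 32851 promoter windows.
Spp1 upstream region: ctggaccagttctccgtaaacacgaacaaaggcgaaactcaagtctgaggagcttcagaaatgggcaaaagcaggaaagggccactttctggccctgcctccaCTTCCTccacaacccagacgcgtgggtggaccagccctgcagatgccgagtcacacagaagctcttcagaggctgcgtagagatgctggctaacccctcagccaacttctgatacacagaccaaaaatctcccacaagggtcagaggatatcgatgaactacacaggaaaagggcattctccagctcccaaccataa

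Postn and Tgfbi encode periostin and the TGF-beta induced protein, a pair of fasciclin-domain proteins that bind integrins. Postn was at 0.277 and 0.104 TPM in acute ECs. In the WT cultures it was at 3.67 and 5.62 TPM in method A replicates 1 and 2, and between 0.128 and 0.307 TPM in the 4 method B cultures. The groups overlapped and the log2 fold change of counts of 3.44 (SE 2.11, adjusted p = 0.211, edgeR) was not significant. Tgfbi was at 0.503 and 0.405 TPM in acute ECs, and in the WT cultures the lowest level was 0.0187, the median 0.214 and the highest 1.69 TPM. These ranges overlapped too, with a log2 fold change of counts of 0.71 (SE 1.12, adjusted p = 0.627, edgeR).

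Although the Tgfbi transcript was scarce in every EC library, its neighbourhood held 2 regions that were accessible in all 8 cultures and in neither acute EC library. The upstream region, centred 7918 bases before the start, had a fold enrichment of 5.34 to 11.7 in the WT cultures and 8.69 and 7.95 in the stabilized cultures. Its sequence is shown because the 300 bases around its median summit (chr13:56601271-56601570, + strand, intergenic) held 2 AP-1 matches, in capitals. An AP-1 match was present in 27.6% of all accessible regions of that length and in 7.81% of promoter windows.
Tgfbi upstream region: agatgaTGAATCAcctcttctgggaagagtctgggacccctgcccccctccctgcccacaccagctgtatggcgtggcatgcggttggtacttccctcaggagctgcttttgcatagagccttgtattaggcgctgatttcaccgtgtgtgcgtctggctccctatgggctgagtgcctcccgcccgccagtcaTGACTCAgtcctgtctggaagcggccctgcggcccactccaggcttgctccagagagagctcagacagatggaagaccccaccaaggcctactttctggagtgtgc

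Sparc encodes SPARC (osteonectin), a collagen-binding calcium protein, and was the most abundant of the 10 transcripts in most EC libraries. The acute ECs held 1666 and 2034 TPM. The lowest level in WT cultures was 707, the median 1150 and the highest 7028 TPM. The log2 fold change of counts was -0.37 (SE 0.46, adjusted p = 0.535, edgeR), with the groups overlapping. The 150-cycle replicates 3 and 4 stood apart at 7028 and 6887 TPM. In these 2 libraries 79.5% and 80.4% of Sparc TPM was assigned to a short transcript of 1304 bases (Sparc-209), which took 0 to 0.145% in the other 12. On counts, the 150-cycle wells alone differed from acute ECs by 0.13 on the log2 scale (SE 0.28). These libraries also differed in the facility that prepared them. The part of read length or library preparation in the high TPM of these wells was not tested.

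Sparcl1 encodes a SPARC-like protein (hevin) that is abundant in astrocytes and in quiescent brain vessels. The acute ECs held 876 and 1501 TPM. Among the WT cultures the lowest level was 9.49, the median 78.7 and the highest 210 TPM, with method A above method B. Every culture was below both acute EC libraries, and the log2 fold change of counts was -3.71 (SE 0.96, adjusted p = 0.0127, edgeR). The call was lost without acute EC replicate 2 (-3.55, adjusted p = 0.0569). Summed over 5 astrocyte markers, TPM was 75.9 to 466 in acute ECs and 3.36 to 45.8 in WT cultures, and 5 pericyte markers summed to 248 to 358 and 4.09 to 9.88 TPM. The part of such cells in the Sparcl1 difference was not tested.

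Fn1 (chr1:71585520-71653200, - strand) encodes fibronectin, and its direction turned on how transcript length was treated. The gene TPM was 1260 and 1277 in acute ECs, and in the WT cultures the lowest level was 449, the median 730 and the highest 1114 TPM, all below both acute EC libraries. On summed counts, however, the log2 fold change was 0.46 (SE 0.60, adjusted p = 0.555, edgeR) with the groups overlapping. With an offset for the mean effective length it was -1.28 (SE 0.47, adjusted p = 0.0498, edgeR), and Fn1 was called lower. A fit of log2(TPM + 1) gave -0.76 (adjusted p = 0.248, limma). The mean effective length of Fn1 was 1230 and 1078 bases in acute ECs and 5829 to 9540 bases in WT cultures. With the offset, 5 of the 10 genes were called, 3 higher and 2 lower, where 12.9% and 13.2% of all genes tested were called, and the median of the 10 genes moved from 0.59 to -0.24.

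**Figure D2:**
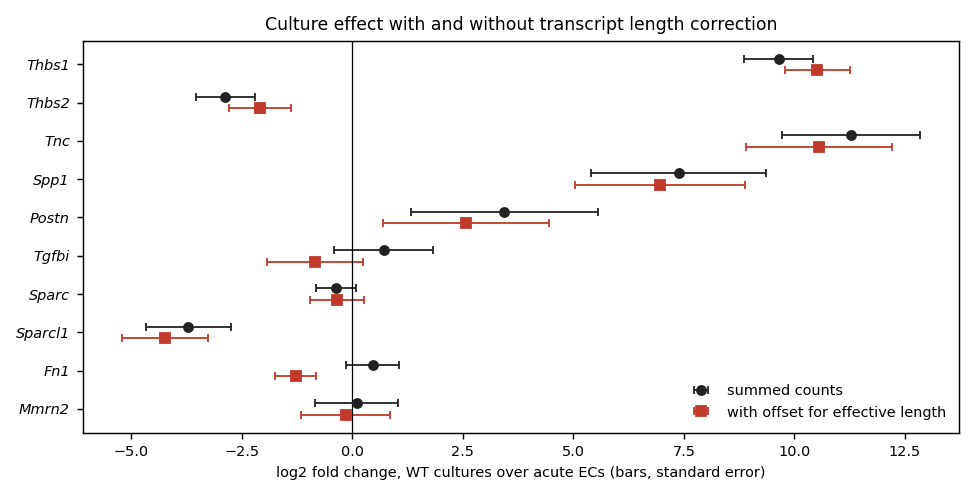
Log2 fold change of counts in WT cultures over acute ECs for the 10 genes, from summed counts (circles) and with an offset for effective length (squares). Bars are standard errors. Fn1 crosses 0, from 0.46 to -1.28, while Thbs1, Tnc and Spp1 stay above 6 and Sparcl1 stays below -3.

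The reads were assigned to different Fn1 transcripts in the acute ECs and the cultures. The annotation holds 17 Fn1 transcripts, of which 7 are coding and longer than 7000 bases. In acute ECs these 7 took 55.4% and 56.1% of Fn1 counts but 9.08% and 8.28% of Fn1 TPM, since the rest of the counts were assigned to short transcripts, where a count is worth more TPM. In WT cultures they took 46.3% to 98.9% of Fn1 TPM. The TPM of the full-length transcripts alone was 114 and 106 in acute ECs and 208 to 969 in WT cultures, higher in all 6 cultures than in both acute EC libraries. The same files therefore order the groups 1 way for the whole gene in TPM and the other way for its full-length transcripts. Among the short entries, the acute ECs held 329 and 153 TPM of Fn1-208 (1350 bases, coding) and 178 and 269 TPM of Fn1-204 (495 bases, retained intron).

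**Figure D3:**
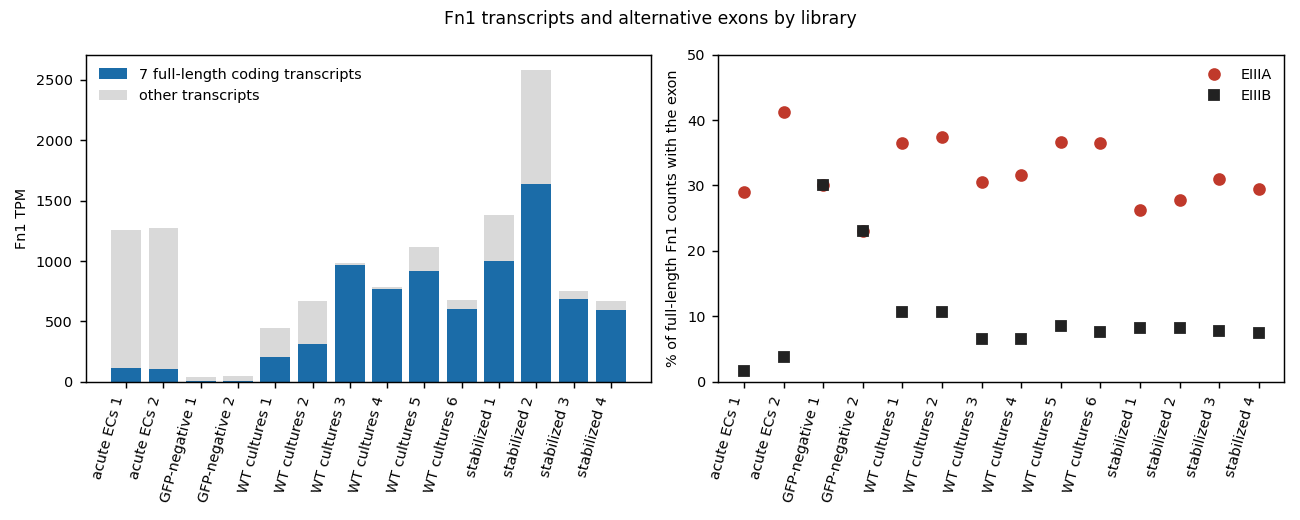
Left, Fn1 TPM per library divided into the 7 full-length coding transcripts and all other transcripts. Right, the share (%) of full-length Fn1 counts assigned to transcripts with the EIIIA or the EIIIB exon. Full-length transcripts make up under 10% of Fn1 TPM in both acute EC libraries, and the EIIIB share is 1.71% and 3.84% there against 6.54% to 10.7% in WT cultures.

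Fibronectin of the matrix is distinguished from plasma fibronectin by the alternative exons EIIIA and EIIIB, each of which encodes a type III repeat. Their reference sequences are shown because the exon shares given below are defined by them. In GRCm38 the EIIIA exon is 270 bases (chr1:71603660-71603929, exon 33 of Fn1-201) and the EIIIB exon 273 bases (chr1:71613763-71614035, exon 25 of Fn1-201). Capitals mark the exon and lower case the flanking intron.
Fn1 EIIIA exon: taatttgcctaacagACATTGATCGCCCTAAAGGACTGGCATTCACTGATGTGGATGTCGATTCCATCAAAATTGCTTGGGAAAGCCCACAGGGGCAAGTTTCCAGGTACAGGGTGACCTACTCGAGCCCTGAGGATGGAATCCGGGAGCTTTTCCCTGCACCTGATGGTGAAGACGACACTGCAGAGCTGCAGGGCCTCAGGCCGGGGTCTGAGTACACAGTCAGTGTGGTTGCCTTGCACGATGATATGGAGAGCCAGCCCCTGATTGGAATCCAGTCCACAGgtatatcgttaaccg
Fn1 EIIIB exon: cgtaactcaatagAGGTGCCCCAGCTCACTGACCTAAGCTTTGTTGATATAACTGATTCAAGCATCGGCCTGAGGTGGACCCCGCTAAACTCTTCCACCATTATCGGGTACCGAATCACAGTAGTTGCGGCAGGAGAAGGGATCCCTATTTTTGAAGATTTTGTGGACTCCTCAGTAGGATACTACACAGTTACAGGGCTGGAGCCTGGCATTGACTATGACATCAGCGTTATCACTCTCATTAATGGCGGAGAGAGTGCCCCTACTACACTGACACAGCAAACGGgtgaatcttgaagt

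EIIIA is present in 4 of the 7 full-length transcripts. Its share of full-length counts was 29% and 41.3% in acute ECs, 30.5% to 37.4% in WT cultures and 26.3% to 31% in stabilized cultures, ranges that overlap. EIIIB is present in Fn1-201 alone, and its share was 1.71% and 3.84% in acute ECs, 6.54% to 10.7% in WT cultures and 7.46% to 8.3% in stabilized cultures. The cultures thus lay above both acute EC libraries for EIIIB, while the GFP-negative cells were at 30% and 23%. The transcript Fn1-203, which has neither exon, took 3.08% and 0% of Fn1 counts in acute ECs and 33.2% to 68.7% in WT cultures. Fn1-216 and Fn1-217 also lack both exons. In acute ECs they took 14.9% to 16.2% and 18% to 20.1% of Fn1 counts. In WT cultures they took 0% to 3.12% and 0.204% to 14.2%. These shares are Salmon's assignment of reads to near-identical transcripts, with no counts of junctions behind them, and they were not tested.

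Mmrn2 encodes multimerin-2, the endothelial matrix protein. The acute ECs held 106 and 36.7 TPM, and in the WT cultures the lowest level was 23.7, the median 67.1 and the highest 240 TPM. The log2 fold change of counts was 0.10 (SE 0.94, adjusted p = 0.937, edgeR) with overlapping groups. This value joined opposite differences within the isolation methods. Method A wells were higher than acute ECs (1.31, SE 0.24, adjusted p = 0.0145), whereas method B wells were lower at 36 cycles (-1.44, SE 0.21, adjusted p = 0.0109) and at 150 cycles (-1.45, SE 0.24, adjusted p = 0.00828).

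Acute ECs were next compared with the GFP-negative cells, which are the brain cells outside the sorted ECs and include cells of the vessel wall. This comparison shares the acute EC libraries with the one above. Fn1, Sparc and Mmrn2 were higher in acute ECs and Thbs1, Tnc and Tgfbi lower, so that 3 genes were called in each direction, where 8.28% of 15116 genes were called higher and 7.55% lower. In TPM, 3 genes were higher and 6 lower in acute ECs without overlap, where 20.2% and 37.1% of all tested genes were so. Scaling by library size alone called 5 of the 10 genes lower, and moved the calls over all genes from 1252 higher and 1142 lower to 929 and 1419.

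Fn1 was at 39.7 and 51.5 TPM in GFP-negative cells, and the log2 fold change of counts in acute ECs over them was 4.56 (SE 0.46, adjusted p = 0.00229, edgeR). Mmrn2 was at 0.252 and 0.402 TPM there, and its log2 fold change was 8.04 (SE 1.06, adjusted p = 0.00452, edgeR), the largest of the 10 genes toward ECs. Sparc was at 342 and 511 TPM, so that it was not absent outside ECs, and its log2 fold change was 2.25 (SE 0.38, adjusted p = 0.00912, edgeR). For these 3 genes both acute EC libraries lay above both GFP-negative libraries.

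Thbs1 was at 9.35 and 25.9 TPM in GFP-negative cells, with a log2 fold change of counts of -4.51 (SE 0.40, adjusted p = 0.00183, edgeR). Tnc was at 26.4 and 31.0 TPM, and its log2 fold change was -9.04 (SE 0.83, adjusted p = 0.00191, edgeR). Tgfbi was at 5.04 and 7.94 TPM, and its log2 fold change was -5.30 (SE 0.64, adjusted p = 0.00363, edgeR). All 3 were thus lower in sorted ECs than in the remaining cells, and only Tgfbi of them stayed scarce in culture.

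The other 4 genes were not called between the sorted cells. Sparcl1 was at 1796 and 4397 TPM in GFP-negative cells, with a log2 fold change of counts of -1.34 (SE 0.42, adjusted p = 0.0593, edgeR), and it was called lower with the replicate number as a block (-1.29, SE 0.31, adjusted p = 0.0386). Spp1 was at 12.1 and 15.4 TPM, and its log2 fold change of -4.60 (SE 1.52, adjusted p = 0.0674) missed the threshold, as did that of Postn (-4.06, SE 1.35, adjusted p = 0.0674), which was at 2.50 and 4.20 TPM. By DESeq2, Sparcl1 and Spp1 were called lower. Thbs2 was at 1.41 and 1.23 TPM, between the acute EC libraries, with a log2 fold change of 0.59 (adjusted p = 0.698, edgeR).

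Markers of other cell types were measured beside these genes. In GFP-negative cells smooth muscle markers summed to 3616 to 5312 TPM, fibroblast markers to 112 to 135 TPM and microglia markers to 112 to 131 TPM. In WT cultures fibroblast markers summed to 7.11 to 41.5 TPM, with 3 of 6 genes over 1 TPM, against 15.4 to 15.7 TPM in acute ECs. Microglia markers summed to 40.6 to 74.8 TPM in WT cultures, with 2 of 5 genes over 1 TPM, against 7.98 to 18.8 TPM. Neuron markers were at 7.6 to 16.7 and 16.9 to 36.5 TPM, oligodendrocyte markers at 0.2 to 1.27 and 30.5 to 37.8 TPM, and choroid plexus markers at 0.0611 to 0.224 and 7.33 to 18.9 TPM in WT cultures and acute ECs. Their part in the culture differences of Thbs1, Tnc and Spp1 was not tested.

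The third comparison asked whether stabilized beta-catenin, the intracellular effector of canonical Wnt signaling, changes these transcripts in culture. It shares the WT cultures with the comparison against acute ECs. None of the 10 genes was called by the quasi-likelihood test of edgeR, 0 of them had an unadjusted p under 0.05, and 0% of all 12971 genes tested were called, although 11% had an unadjusted p under 0.05. DESeq2 also called 0 of the 10 genes, and 0.0976% of all genes tested. In TPM the stabilized and WT cultures overlapped for all 10 genes, where 0.439% of all tested genes were higher and 0.285% lower without overlap. With the replicate number as a block, Fn1 alone was called (1.17, SE 0.20, adjusted p = 0.0495), where 1.19% of all genes tested were called. The block sets stabilized replicates 3 and 4, of 36 cycles, against WT replicates of 150 cycles from another facility. Read format, library preparation and genotype therefore cannot be told apart in those pairs. Against the method B wells of 36 cycles, Fn1 differed by -0.17 (SE 0.21).

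Fn1 was at 1380, 2579, 754 and 671 TPM in stabilized replicates 1 to 4, with a log2 fold change of counts of 0.62 (SE 0.38, adjusted p = 0.555, edgeR) over WT cultures. In TPM the 2 method A wells were above every WT culture and the 2 method B wells were within their range. In CPM the stabilized wells held 8324, 12874, 9312 and 8827 and WT replicate 5 held 12195. The method A well at 8324 CPM was thus not above every WT culture on that scale. Against WT wells of the same method, a split remained. The WT method A wells held 4235 and 4740 CPM, below the stabilized wells of that method. The WT method B wells ranged from 4527 to 12195 CPM, and the stabilized wells of that method lay within this range. Mmrn2 was split in TPM as well, at 366, 390, 48.6 and 52.4 TPM (0.56, SE 0.74, adjusted p = 0.779). Its split stayed in CPM, at 992.5, 931.8, 267.8 and 301.0, and the WT cultures were split too. The WT method A wells held 1041.4 and 1066.8 CPM of Mmrn2 and the WT method B wells 126.5 to 159.7 CPM. On counts the stabilized method A wells differed by only -0.04 on the log2 scale from the WT wells of that method. Sparcl1, at 223, 220, 27.5 and 27.5 TPM, was split by method as in the WT cultures (0.30, SE 0.85, adjusted p = 0.904).

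Thbs1 was at 1129, 1294, 667 and 559 TPM, and in CPM at 5967, 6209, 6065 and 5513, within the range of the WT cultures (3431 to 7171 CPM). Its log2 fold change was 0.19 (SE 0.28, adjusted p = 0.802). Tnc was at 143, 176, 114 and 95.6 TPM, inside the range of the WT cultures (0.09, SE 0.53, adjusted p = 0.957). Sparc was at 2743, 2800, 1471 and 1388 TPM, above the WT wells of 36 cycles and below those of 150 cycles (0.30, SE 0.30, adjusted p = 0.717). Spp1 was at 134, 366, 19.3 and 12.0 TPM, a spread as wide as among the WT cultures (-0.15, SE 0.94, adjusted p = 0.959). The scarce Thbs2, Postn and Tgfbi reached at most 4.50, 5.51 and 1.53 TPM, with log2 fold changes of 1.08, 0.01 and 0.36 and SEs of 0.69 to 1.31.

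The difference between stabilized and WT cultures took another direction in each isolation method for several genes. In method A wells, 1 of the 10 genes was called, Fn1 (1.34, SE 0.21, adjusted p = 0.00267), where 6.32% of all genes tested were called. In method B wells of 36 cycles 2 were called, Sparcl1 (1.50, SE 0.07, adjusted p = 0.000481) and Mmrn2 (1.10, SE 0.07, adjusted p = 0.000664), where 1.37% of all genes tested were called. Each of these groups is 2 wells of 1 experiment, so that the experiment and the genotype cannot be told apart. In the test of the interaction with isolation method, 8 of the 10 genes passed an adjusted p of 0.05, where 49.5% of all 13369 genes tested did.

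**Figure D4:**
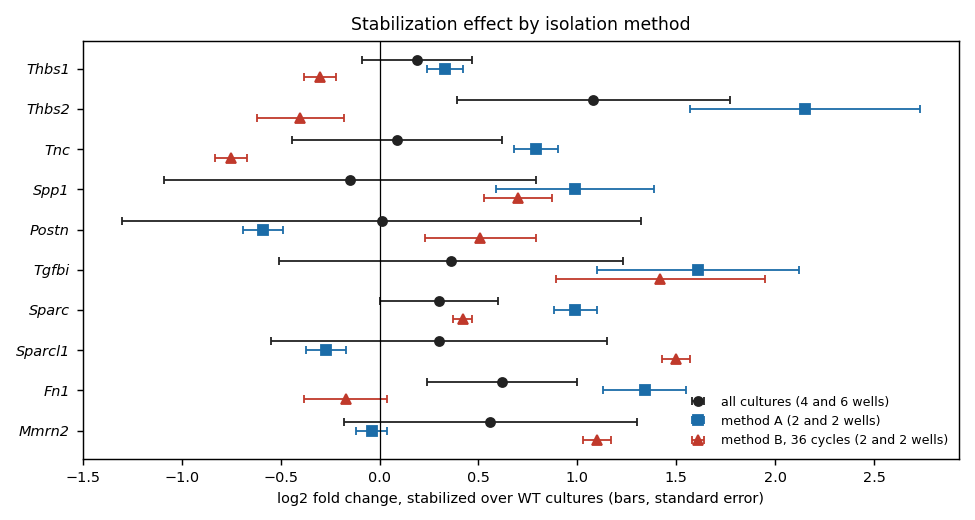
Log2 fold change of counts in stabilized over WT cultures, for all wells (circles), method A wells (squares) and method B wells of 36 cycles (triangles). Bars are standard errors. For Thbs1, Thbs2, Tnc and Fn1 the method A value lies above 0 and the method B value below it, and for Sparcl1, Postn and Mmrn2 the order is the opposite.

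Tnc illustrates the split. Its log2 fold change was 0.79 (SE 0.11) in method A wells and -0.75 (SE 0.08) in method B wells, with an interaction of -1.51 (SE 0.14, adjusted p = 0.000146, edgeR). The interaction of Sparcl1 was 1.79 (SE 0.14, adjusted p = 8.8e-05), that of Mmrn2 1.16 (SE 0.10, adjusted p = 0.000121) and that of Postn 1.13 (SE 0.23, adjusted p = 0.00395). It was negative for the other genes that passed, at -1.48 for Fn1 (SE 0.33, adjusted p = 0.00589), -2.52 for Thbs2 (SE 0.75, adjusted p = 0.0218), -0.61 for Thbs1 (SE 0.10, adjusted p = 0.00162) and -0.55 for Sparc (SE 0.12, adjusted p = 0.00501). Spp1 and Tgfbi did not pass (-0.27 and -0.17, adjusted p = 0.696 and 0.897).

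Chromatin at the start sites of the 10 genes fell into several patterns. Here a gene had a peak when a peak with fold enrichment over 2 and a −log10 q over 2 lay within 1000 bases of an annotated start. Thbs1, Sparc, Sparcl1 and Fn1 had a peak in all 10 libraries, as did 49.8% of all genes. The Thbs1 start was the weakest of these in acute ECs (fold enrichment 3.3 and 3.07), and in the cultures the strongest peak within this distance, at 6.92 to 9.95, was that of the upstream region shown above in all but WT replicate 2. Tgfbi had a peak in 5 of 6 WT cultures, both stabilized cultures and neither acute EC library. Thbs2 had one in both acute EC libraries and 3 of 6 WT cultures, Mmrn2 in WT replicates 5 and 6 alone, and Postn in none. The peaks were called in each library separately, from 31779 to 98732 peaks per library, so that a missing peak can mark a library with few peaks. The acute EC libraries had 37384 and 31779 peaks and WT replicate 2 had 33122, against 50395 or more in the other cultures.

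**Figure D5:**
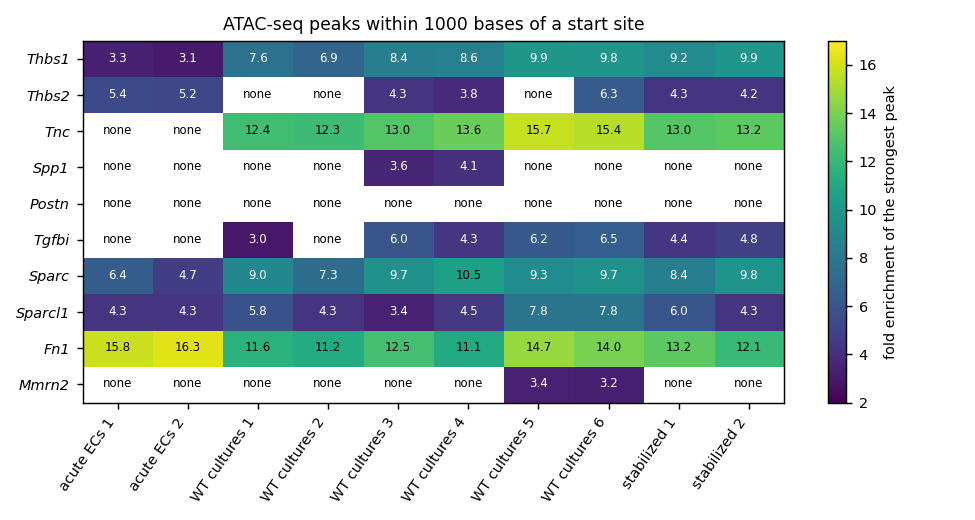
Fold enrichment over local background of the strongest ATAC-seq peak within 1000 bases of an annotated start of each gene, by library, with none where no peak was called. Tnc has no peak in acute ECs and a fold enrichment of 12.3 to 15.7 in all 8 cultures, while Fn1 and Sparc have peaks in every library.

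Within 10000 bases of the 10 genes 86 accessible regions were found. Of these, 6 were present in all WT cultures and no acute EC library, where 8.09% of all 126224 regions had that pattern. All 6 were also present in both stabilized cultures. They were the upstream regions of Thbs1, Spp1 and Tgfbi and the Tnc start shown above, a region 44565 bases inside Tnc and one 25386 bases inside Tgfbi. The opposite pattern, present in both acute EC libraries and no WT culture, was shown by 4 regions (2.93% of all regions), of which 2 lay inside Sparcl1, 1 inside Sparc and 1 inside Tnc. The 2 regions of Sparcl1 lay 11403 and 10700 bases from its start, with fold enrichments of 3.58 to 6.4. Another 9 regions were present in every library, where 13.4% of all regions were.

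Other matricellular genes and the receptors of these proteins were counted from lists. Of 35 other matricellular genes 27 passed the filter on low counts in WT cultures against acute ECs, with a median log2 fold change of counts of 0.67. Of these, 4 passed as higher in culture and 2 as lower, where 13.5% and 10.2% of all genes tested did. Without the TPM minimum 16 passed in either direction, a rule by which 22.9% of all genes tested were higher and 20.5% lower. Among the genes called higher with the TPM minimum, Ccn2 and Ccn1 had the largest changes. Ccn2 was at 950 to 4510 TPM in WT cultures against 15.5 to 29.3 TPM (6.21, SE 0.92, adjusted p = 0.00103). Ccn1 was at 783 to 1858 TPM against 27.6 to 66.3 TPM (3.99, SE 0.54, adjusted p = 0.000707). The other CCN genes of the list were not called. Fstl1, a follistatin-like protein of the SPARC family, rose by 3.57 on that scale (SE 0.74, adjusted p = 0.00479), and the fibulin Efemp2 by 1.25 (SE 0.37, adjusted p = 0.0236). With the length offset Efemp2 changed by 0.47, below the 2-fold limit, and its lowest WT culture (11.5 TPM) lay close to the acute ECs (11.1 and 11.3 TPM). Lower in culture were Vtn, which encodes vitronectin and is made by pericytes in brain, at 0 to 0.388 TPM against 148 to 279 TPM (-9.71, SE 1.26, adjusted p = 0.00061), and Spock2, a testican, at 0.622 to 2.47 TPM against 440 to 643 TPM (-9.62, SE 0.84, adjusted p = 0.000114).

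Among 20 receptors 8 were called higher in culture and 2 lower, and their log2 fold changes of counts had a median of 1.38, where 13.5% and 10.2% of all genes tested were called and the median over them was 0.10. The largest changes were in Cd44, a receptor of osteopontin and hyaluronan (5.78, SE 1.03, adjusted p = 0.00242), the heparan sulfate proteoglycan Sdc4 (5.11, SE 0.58, adjusted p = 0.000332), Itga5, the alpha subunit of the main fibronectin receptor (4.85, SE 1.43, adjusted p = 0.0224), and Itga3 (3.77, SE 0.83, adjusted p = 0.00647). With the length offset Itga3 was at 1.56, while Cd44, Sdc4 and Itga5 were at 6.97, 5.62 and 5.27. Itga3 ranged from 9.45 to 54.6 TPM in the acute ECs. Cd47, a receptor of thrombospondin-1, was called lower (-1.72, SE 0.39, adjusted p = 0.00754), but its log2 fold change was -0.16 with the length offset and its TPM ranges overlapped, at 41.9 to 164 in WT cultures and 59.8 to 63.2 in acute ECs. Lrp1, an endocytic receptor that takes up thrombospondins, was the other lower gene (-1.73, SE 0.55, adjusted p = 0.0301), at -4.14 with the length offset. Leaving out acute EC replicate 2 left 4 receptor calls and leaving out acute EC replicate 1 left 6. In stabilized against WT cultures no gene of either list was called, as for all genes tested.

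For 4 of the genes, the genes with the most similar profile over the 14 libraries were sought among 10699 genes, by the root-mean-square difference of log2(TPM + 1) after each gene's mean was subtracted. Closest to Thbs1 were S100a6 (0.65), Pgf (0.72) and Lgals1 (0.84), where Thbs1 itself varied by 3.51 about its mean. Closest to Fn1 were Heg1 (0.40), Jcad (0.44) and Fgd5 (0.46), against a variation of 1.64. Closest to Sparc were Ccdc85b (0.25), Srpr (0.28) and Hhex (0.29), against 1.20, and closest to Mmrn2 were Vwf (0.61), Acer2 (0.73) and Pecam1 (0.73), against 2.45. The libraries of a group share their isolation and read type, so these are descriptions over 14 points that are not independent.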

How the data were processed

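RNA-seq covered 14 libraries and ATAC-seq 10. The authors quantified reads with Salmon 0.14.0 on the transcripts of GENCODE M21, correcting for sequence, GC and position bias, and deposited per transcript an estimated count, not normalized, a TPM value (scaled to a fixed total after division by effective length) and the effective length in bases. ATAC-seq reads were aligned by the authors to GRCm38 (HISAT2 2.1.0), and MACS2 2.1.2 was run on each library by itself. Each deposited peak has a score (10 times the −log10 q), a fold enrichment ratio over local background, a −log10 p and a −log10 q. The study's filter on fold enrichment (over 2) and −log10 q (over 2) was applied here. Groups came from the labels, and isolation methods and read formats from the study's methods. Libraries labelled as cerebrum alone were not analysed here.

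Counts were summed per gene over 21847 protein-coding genes and rounded to whole numbers. The test was the quasi-likelihood test of edgeR 4.0.16 (R 4.3.3) after filterByExpr and TMM scaling, with Benjamini-Hochberg adjustment over all tested genes and only the groups compared in each fit. edgeR replaced EBSeq, which the study used. A call needed an adjusted p under 0.05, a log2 fold change beyond 1 in either direction and 5 TPM or more in each replicate of the higher group, and the interaction an adjusted p under 0.05. Standard errors were derived from the fold change and the F statistic. The edgeR fit of each comparison between groups was checked first on simulated counts in which 200 genes had known changes. The DESeq2, limma, length offset, replicate block and interaction fits were not checked in this way. Alternatives used DESeq2 1.42.0, limma 3.58.1 on log2(TPM + 1) or log2(TPM + 0.1), an offset for effective length, other filters and scalings, and subsets of libraries. Sums over transcripts depend on how the reads were divided between them, and read length and pairing differ between the libraries. At 24284843 counts or more per library the spread between libraries, not counting error, limits precision for all but the scarcest of the 10 genes.

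The 10 genes, the lists of 35 other matricellular genes and 20 receptors, the markers and the tests were chosen with earlier results of these data known. Named were the 10 genes, up to 4 called genes per direction of each list, and the 3 genes with the most similar profile. Printed sequences came from the RefSeq copy of the GRCm38.p6 genome, promoter windows from RefSeq, and gene, exon and start positions from GENCODE M21. Motif searches covered both strands. In RNA-seq, stabilized and WT cultures share replicate numbers 1 to 4. Same-numbered libraries deviated together (correlations 0.31, 0.40, 0.33 and 0.39 over 8754 genes), replicates 1 and 2 having method A and replicates 3 and 4 method B in both groups, and 3 of 4 stabilized libraries correlated best with their own number. The fit with this pairing as a block is given beside the result.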

Additional observations from a re-analysis of the deposited data

Results flagged for a closer look

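The effect of stabilized beta-catenin differed between isolation methods A and B for 8 of the 10 genes, by edgeR's test of the interaction term in the 8 cultured libraries of 36 cycles (adjusted p under 0.05). Relative to method A, the log2 fold change in method B was lower for Thbs1 (by an interaction of -0.61), Thbs2 (-2.52), Fn1 (-1.48), Sparc (-0.55) and Tnc (-1.51), and higher for Sparcl1 (1.79), Postn (1.13) and Mmrn2 (1.16). The interaction passed for 49.5% of all genes tested, and each arm is 2 wells of 1 experiment, so that the experiment, the genotype of the WT mice and the isolation method cannot be told apart. In Dixon's test of the single highest or lowest library of a group, none passed in the 20 sets of a gene and a group with 4 libraries or more. That test does not see 2 libraries that lie apart together, as WT replicates 3 and 4 did for Sparc in TPM.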

How the results depend on the processing

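For WT cultures against acute ECs, the direction of Fn1 was also negative with a fit of log2(TPM + 0.1) (-0.76), the replicate block (-0.13), method A alone (-0.21) and the 150-cycle wells alone (-0.07), beside the length offset (-1.28) and log2(TPM + 1) (-0.76). Sparc turned positive on log2(TPM + 1) and log2(TPM + 0.1) (0.05 in each) and with the 150-cycle wells (0.13), and Postn turned negative with the 150-cycle wells (-0.24). Mmrn2 turned negative with the offset (-0.15), coding transcripts alone (-0.09), method B at 36 cycles (-1.44) and 150 cycles (-1.45), and ranged from -0.36 to 0.34 without each replicate. Tgfbi turned negative with the offset (-0.84), log2(TPM + 0.1) (-0.42), 36-cycle wells (-0.54) and method B at 36 cycles (-1.81). Library size alone moved the median of all genes from 0.10 to 0.30, log2(TPM + 1) to 0.33 and log2(TPM + 0.1) to 0.55. The members called numbered 3 to 4 without each replicate. Without the TPM minimum 16 other matricellular genes were called in place of 6, and receptor calls ranged from 4 to 11 without each replicate. For acute ECs against GFP-negative cells, Thbs2 was -0.13 on log2(TPM + 1), -0.42 on log2(TPM + 0.1) and -0.17 with the replicate block, and ranged from -1.98 to 1.45 without each replicate. Library size alone moved the median of all genes from -0.06 to -0.44.

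For stabilized against WT cultures, the replicate block called 1 member in place of 0, and method A called 1 and method B at 36 cycles 2. With the block Sparcl1 was -0.06 and Tgfbi -0.34. In the 36-cycle wells Thbs1 was -0.02, Sparcl1 -0.05, Spp1 0.95, Tnc -0.27 and Postn -0.53. In method A wells Sparcl1 was -0.27, Spp1 0.99, Postn -0.59 and Mmrn2 -0.04. In method B wells of 36 cycles Thbs1 was -0.30, Thbs2 -0.40, Fn1 -0.17, Spp1 0.70 and Tnc -0.75. With method as a term Spp1 was 0.84 and Postn -0.18. The offset gave -0.14 for Sparc and 0.04 for Spp1, and Postn was -0.08 with library size alone and -0.01 with coding transcripts alone. Without each replicate, Thbs2 ranged from -0.19 to 1.43, Sparcl1 from -0.06 to 0.84, Spp1 from -1.22 to 0.27, Tnc from -0.08 to 0.46, Postn from -0.53 to 0.75 and Tgfbi from -0.47 to 0.82. None of these reversed values had been called, and the cause of each was not tested.

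In the other comparisons the labels do not tie libraries of the same number to the same mice, and with 2 pairs the numbers were not taken as a pairing. Correlations of same-numbered libraries were -0.05 for WT cultures with acute ECs and 0.11 for acute ECs with GFP-negative cells. The block called 5 members in place of 4 in the first, adding Mmrn2 as higher (1.36, adjusted p = 0.0122), and 7 in place of 6 in the second, adding Sparcl1. Apart from these, 360 values kept their direction and side of the threshold under another setting, 16 passed it and 1 lost it. With a −log10 q over 5, the Thbs1 start lost its peak in acute EC replicate 2 and Tgfbi in WT replicate 1.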
